A study of Mus musculus with 6 samples.

Results

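The genes described here are nuclear genes of mitochondrial oxidative phosphorylation, most of which encode subunits. They were taken by symbol from the deposited expression table as all genes named Nduf, Uqcr or Atp5, or Cox followed by 4, 5, 6, 7 or 8, together with Sdha, Sdhb, Sdhc and Sdhd. This gave 95 of the 22442 genes, with 47 assigned by symbol to complex I, 4 to complex II, 8 to complex III, 18 to complex IV and 18 to complex V. These counts include genes other than subunits, namely 8 Ndufaf assembly factors, the supercomplex factor Cox7a2l, Atp5s and the non-coding Ndufb1-ps. The choice by symbol left out the complex III subunit Cyc1. The RNA came from 6 cultures of mTECs, a mouse renal tubular epithelial line that the study describes as immortalised and the sample labels describe as magnetically sorted cells. All 6 cultures received LPS, a bacterial lipopolysaccharide, at 20 µg/ml for 24 h, so no untreated library enters the comparison. Before LPS, the 3 cultures labelled LPS were transfected with a negative control and the 3 labelled LPSKD with a silencing RNA against Stat3. Stat3 is a transcription factor of the inflammatory response, and the study lists its mouse reagent as an shRNA. Levels are in FPKM, which scales the fragments of a gene to its length and to the total of the library. Nothing in the labels says that cultures of a group were started separately, so p-values measure the spread between these libraries, which may be technical.

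Oxidative phosphorylation passes electrons from NADH (through complex I) and succinate (through complex II) to ubiquinone, complex III and cytochrome c. Complex IV then hands them to oxygen, and complex V, the ATP synthase, uses the proton gradient that the chain builds up to make ATP. Most subunits are encoded in the nucleus and imported, while a small core is encoded in mitochondrial DNA, so complexes I, III, IV and V are assembled from products of both genomes and complex II from nuclear products alone. Proximal tubule cells rely heavily on this pathway for solute transport. Its nuclear genes are known targets of the transcription factors NRF1, GABP of the ETS family, YY1 and the oestrogen-related receptors.

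The promoters of the members were searched for the letters of these factors on both strands, since this is a feature that the choice by symbol did not use. RefSeq promoters on GRCm38.p6, from 250 bases before to 50 after the start, were matched for 76 members, 73 of them at a level that could be tested. The NRF1 letters GCGCATGC stood in 12 of those 73 (16.4%), beside 5.6% of 9337 tested genes and 2.8% of 27025 genes with a promoter. The YY1 letters AAGATGGCG stood in 9.6% of tested members and 3.4% of all tested genes, and 1.5% of all promoters. The ETS letters CCGGAAG were about as common in members as elsewhere among tested genes, at 23.3% and 19.2%, and stood in 9.1% of all promoters. The oestrogen-related receptor letters TCAAGGTCA stood in 2 tested members (2.7%), beside 0.2% of tested genes and 0.4% of all promoters. The STAT letters TTCNNNGAA stood in 6.8% of tested members, 7.0% of tested genes and 8.5% of all promoters. The NRF1 windows are shown for the highest member of each complex that carried the letters before its start, with the NRF1 letters in capitals. For complex III none is shown, since in Uqcrc1 and Uqcr11, its members with the letters, they did not lie wholly before the start. Where both strands match, the capitals run over both matches.
Ndufa8 (complex I, chr2:36049339-36049368, minus strand): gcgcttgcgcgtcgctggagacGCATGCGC
Sdhb (complex II, chr4:140961206-140961235, plus strand): aagcccagtggGCATGCGCcctacgggccg
Cox6a1 (complex IV, chr5:115349102-115349131, minus strand): acaggaacgggGCGCATGCGCgctctcgct
Atp5g2 (complex V, chr15:102671071-102671100, minus strand): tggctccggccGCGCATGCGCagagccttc
In Cox6a1 and Atp5g2 the letters form a palindrome that reads the same on both strands. A match is only a run of letters, and it says nothing of binding.

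The library totals recovered from the FPKM values were 24084827 to 25422171 fragments, nearly all of them on the listed genes. Stat3, the targeted gene, had 34.6, 31.4 and 35.2 FPKM under the LPS label and 30.8, 35.2 and 34.3 under the LPSKD label. Its log2 difference was -0.01 ± 0.07 (SE, adjusted p = 0.944, limma), so the Stat3 transcript was not lower in the libraries labelled as Stat3 knock-down, and every direction given here rests on the labels alone. Of 7 tubule markers, all were measured: Pax2 (log2 difference 0.60), Pax8 (0.39) and Cdh16 (0.27) were higher and Krt18 (-0.15) was lower under the LPSKD label at an adjusted p under 0.05. Over all tested genes, 3.23% passed this threshold. Epcam, Cdh1 and Krt8 did not pass, and the 7 tubule markers had a median of 0.04, with 4 higher and 3 lower. The summed level of the tubule markers was 3180 to 3260 FPKM under the LPS label and 3130 to 3160 under the LPSKD label. Of 6 immune markers, 5 were tested, with a median of -0.18. Csf1r (0.45) passed the threshold and was higher, while the other 4 had differences from -0.39 to -0.04 and did not pass. Ptprc lay between 0.372 and 1.08 FPKM, and the summed level of the 6 was 58.2 to 64.7 FPKM under the LPS label and 61.4 to 74.8 under the LPSKD label. None of the 5 fibroblast, 2 endothelial and 2 muscle markers tested passed the threshold or had an unadjusted p under 0.05, with summed levels of 17.4 to 32.2, 2.23 to 4.31 and 1.61 to 2.78 FPKM, and the 3 testis markers had at most 1 fragment. Whether these markers have a part in the results was not tested. In bulk RNA, fewer cells of a type and less RNA per cell cannot be told apart.

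The oxidative phosphorylation genes were among the strongly expressed genes of the line. Of the 95, 87 had a mean of at least 0.5 FPKM and were tested. The median of their mean levels was 99.4 FPKM, beside 21.5 FPKM over all 11723 tested genes. Among the tested nuclear members the mean levels ran from 1.39 FPKM for Cox7b2 to 964 FPKM for Atp5b, the catalytic beta subunit of the ATP synthase. Median levels were 57.1 FPKM for complex I, 111 for complex II, 134 for complex III, 203 for complex IV and 129 for complex V. Together the 95 genes took 0.701%, 0.742% and 0.714% of the recovered fragments under the LPS label and 0.741%, 0.744% and 0.725% under the LPSKD label. The 2 ranges overlapped, since replicate 2 of the group labelled LPS reached the level of the other group.

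**Figure D1:**
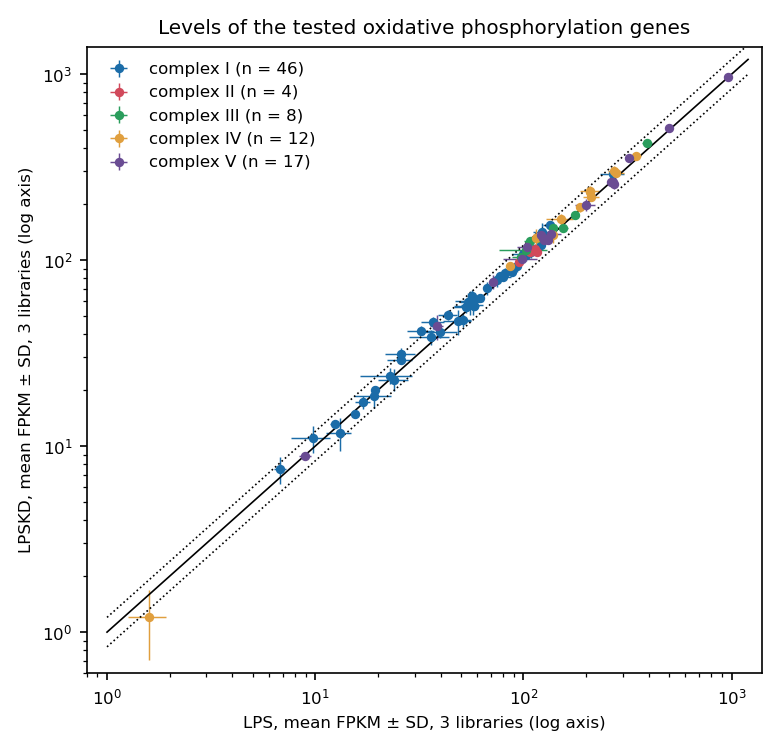
Mean FPKM of each of the 87 tested members under the LPS label (horizontal, log axis) and LPSKD (vertical, log axis), with SD over 3 libraries as bars and complexes by colour. The solid line marks equal levels and the dotted lines a 1.2-fold difference; the members follow the solid line from 1.39 to 964 FPKM.

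Between the groups the levels of these genes were close. In the fit over all genes, 1 of 87 tested members (1.15%) passed an adjusted p of 0.05 (limma, Benjamini-Hochberg), whereas 379 of 11723 tested genes (3.23%) did. That member, Uqcr10, was higher under the LPSKD label, a direction in which 1.57% of tested genes were called. An unadjusted p under 0.05 was found for 14 members (16.1%), close to the 17.6% of all tested genes. The 95% interval of the difference lay within 1.5-fold in either direction for 85 of the 87 members and within 1.2-fold for 46. Cox7b2 and Ndufb4 were the 2 whose intervals reached beyond 1.5-fold.

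The differences were small but mostly of one sign. The mean was higher under the LPSKD label for 66 members and lower for 21, with a median log2 difference of 0.07 and a range from -0.44 to 0.38. Over all tested genes, 5569 were higher and 6154 lower, with a median of -0.01. The groups did not overlap for 11 members on the higher side (12.6%) and 1 on the lower (1.15%), beside 10.6% and 13.2% of all tested genes. Of the libraries left out in turn, replicate 1 of the group labelled LPS reduced this lean the most: without it, 50 members were higher and the median was 0.02.

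**Figure D2:**
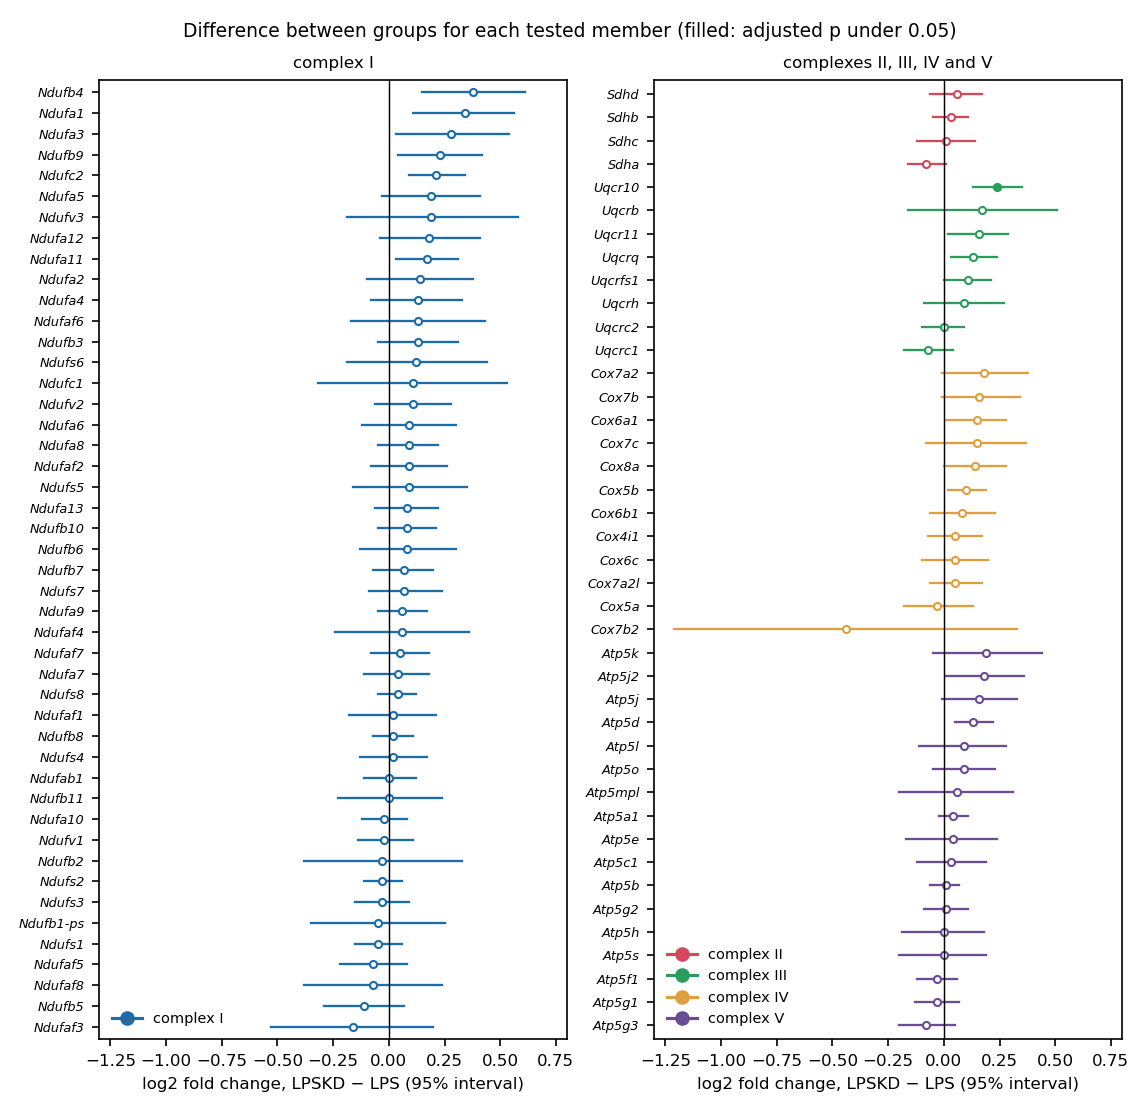
Log2 fold change of each tested member (LPSKD minus LPS, horizontal) with its 95% interval from limma, ordered within each complex from the highest difference to the lowest. Only Uqcr10 (filled point) has an adjusted p under 0.05, and most intervals include 0.

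Complex I, the NADH dehydrogenase, showed no called member among 46 tested. An unadjusted p under 0.05 was found for 6, beside 17.6% of all tested genes. Of the 46, 35 were higher and 11 lower, with a median of 0.08, or 0.04 without replicate 1 of the group labelled LPS. The 7 core subunits measured here, which carry the flavin and the iron-sulphur clusters, lay between -0.05 and 0.11 on the log2 scale. The 95% intervals of 6 were within 1.2-fold, and that of Ndufv2 reached 0.28. Ndufs1, the largest core subunit, had 58.3, 60.5 and 56.0 FPKM under the LPS label and 54.2, 57.5 and 57.5 under the LPSKD label. The 30 accessory subunits had a median of 0.09 and 26 were higher, and without replicate 1 of the group labelled LPS their median was 0.05. The 8 Ndufaf assembly factors had lower levels, between 7.15 and 40.4 FPKM, and a median difference of 0.03.

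The members of complex I with the largest differences were small accessory subunits. Ndufb4 had 27.6, 37.2 and 32.0 FPKM under the LPS label and 44.3, 41.2 and 39.9 under the LPSKD label. The groups did not overlap, and the log2 difference was 0.38 ± 0.10 (SE, adjusted p = 0.0911, limma). Every stretch of 31 bases of the Ndufb4 coding sequence also occurs in a transcript of another gene, so its fragments could have been divided with such copies. Ndufa1, a membrane subunit encoded on the X chromosome, had 40.4, 38.8 and 31.4 FPKM against 47.5, 49.0 and 42.5. Its groups did not overlap either, at 0.34 ± 0.10 (adjusted p = 0.125). Ndufa3 (0.28, adjusted p = 0.243) and Ndufb9 (0.23, adjusted p = 0.2) followed. The groups overlapped for Ndufa3 and did not for Ndufb9. Ndufc2, a membrane-arm subunit, had 122, 139 and 140 FPKM against 158, 156 and 152, a difference of 0.21 ± 0.05 (adjusted p = 0.0849), and none of its coding stretches are shared. Ndufa4, the highest gene with a complex I name at 269 ± 35.5 and 292 ± 23.5 FPKM (SD, n = 3), encodes a protein that is now placed in complex IV. Its values of 243, 309 and 253 against 318, 284 and 274 overlapped. Its paralogue Ndufa4l2, known as a gene induced by hypoxia, was close to absent, with 9, 1 and 1 fragments under the LPS label and 1, 1 and 4 under the LPSKD label. Ndufb1-ps, annotated as a non-coding gene in GENCODE M21, was measured at 48.5 ± 7.52 and 46.8 ± 7.18 FPKM.

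Complex II, the succinate dehydrogenase, also works in the TCA cycle. Its 4 subunits had similar levels, all between 96.6 and 115 FPKM on average, and all 4 intervals of the difference were within 1.2-fold. None was called, and 0 had an unadjusted p under 0.05, beside 17.6% of all tested genes. Sdha, the flavoprotein that oxidises succinate, had 118, 115 and 114 FPKM under the LPS label and 108, 111 and 110 under the LPSKD label. It was the single member whose values were all lower under the LPSKD label, by -0.08 ± 0.04 on the log2 scale (adjusted p = 0.316). Sdhb, the iron-sulphur subunit, had 94.5, 96.3 and 96.3 against 98.4, 98.8 and 95.3 FPKM, a difference of 0.03 (adjusted p = 0.761). The membrane anchors overlapped between groups as well. Sdhc had 107, 115 and 119 against 109, 123 and 112 FPKM, and Sdhd had 108, 112 and 102 against 112, 115 and 106. Their differences were 0.01 (adjusted p = 0.949) and 0.06 (adjusted p = 0.615).

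Complex III, the cytochrome bc1 complex, held the called member and had the highest median difference of the 5 complexes, at 0.12 over 8 tested genes. Without replicate 1 of the group labelled LPS this median was 0.06, and with the length and GC trend removed 0.07. With all 6 libraries, 4 of the 8 had an unadjusted p under 0.05 (limma), beside 17.6% of all tested genes. The groups did not overlap for 4 on the higher side and 0 on the lower, beside 10.6% and 13.2% of all tested genes. Uqcr10 (chr11:4701973-4704342, minus strand, GRCm38), a small single-span subunit next to the Rieske protein, had 105, 114 and 101 FPKM under the LPS label and 126, 128 and 125 under the LPSKD label. These values rest on 504, 544 and 476 fragments against 604, 590 and 611. The groups did not overlap, and the difference was 0.24 ± 0.05 on the log2 scale, or 18.2% (95% interval of the log2 difference 0.13 to 0.35, adjusted p = 0.0329, limma). The exact two-sided permutation p over the 6 libraries was 0.1, the smallest that 3 against 3 allows. The call was lost when any library other than replicate 2 of the group labelled LPS was left out, with adjusted p-values from 0.0618 to 0.119, while the difference stayed between 0.20 and 0.29. It was also lost without the filter on low values (adjusted p = 0.0561), without limma's trend (0.127) and by voom on the recovered fragments (0.107). In the Uqcr10 coding sequence, 13.6% of 31-base stretches are shared with other genes. Its promoter is shown because it is the called member: the 250 bases before its start (chr11:4704345-4704594, minus strand) hold none of the NRF1, ETS or YY1 letters, so no base is in capitals.
Uqcr10: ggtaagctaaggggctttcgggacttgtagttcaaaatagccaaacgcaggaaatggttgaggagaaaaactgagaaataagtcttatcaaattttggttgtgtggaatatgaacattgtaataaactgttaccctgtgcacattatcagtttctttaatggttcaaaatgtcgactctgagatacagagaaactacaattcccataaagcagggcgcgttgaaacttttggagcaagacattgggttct
The STAT and oestrogen-related receptor letters were not in its promoter either.

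The other accessory subunits of complex III were higher on average without passing the threshold. Uqcrq, the highest gene of the complex, had 373, 415 and 386 FPKM against 439, 418 and 430, a difference of 0.13 ± 0.04 (adjusted p = 0.169) with no overlap. Uqcrb was the most variable, with 82.6, 133 and 93.3 FPKM under the LPS label and 114, 113 and 114 under the LPSKD label. Its difference of 0.17 ± 0.15 (adjusted p = 0.594) turned on single libraries. Without replicate 1 of the group labelled LPS it was 0.03 (adjusted p = 0.924), and without replicate 2 it was 0.37 (adjusted p = 0.0185). In Uqcrb, 89.4% of coding stretches are shared with other genes. The 2 large matrix-facing core proteins, Uqcrc1 and Uqcrc2, did not share the lean. Uqcrc2 had 170, 180 and 177 against 173, 182 and 170 FPKM, and Uqcrc1, chosen after its values were seen, differed by -0.07 (adjusted p = 0.512). The Rieske protein Uqcrfs1, also a core subunit and also chosen after its values were seen, had 130, 141 and 145 against 151, 148 and 148 FPKM. Its groups did not overlap, at 0.11 ± 0.05 (adjusted p = 0.284, limma), or 0.06 without replicate 1 of the group labelled LPS.

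**Figure D3:**
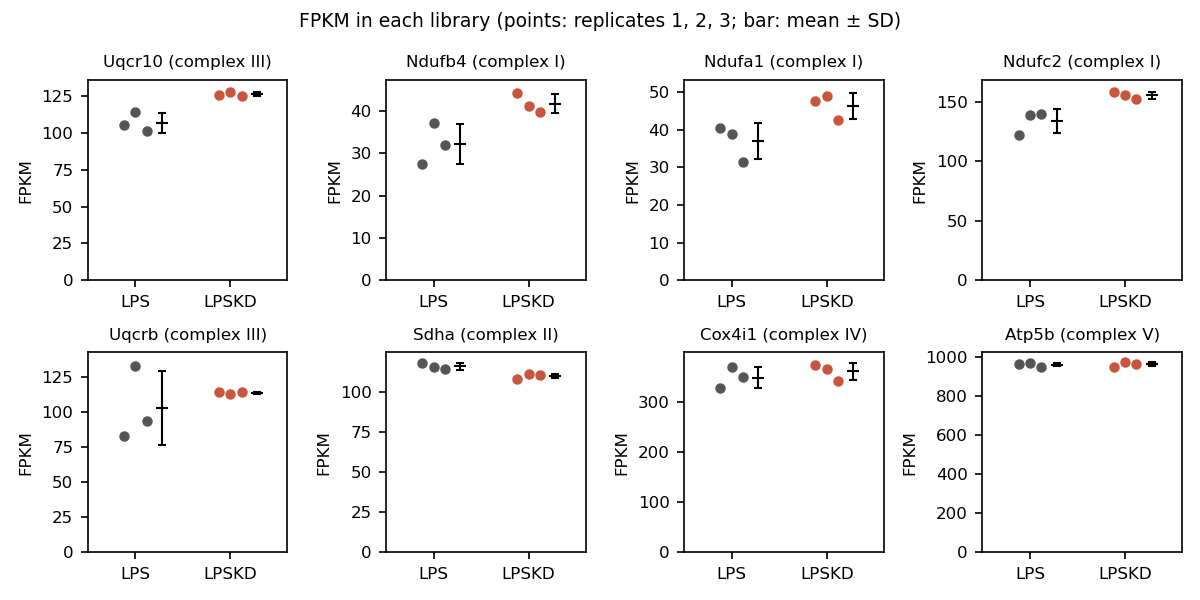
FPKM of 8 members in each library (vertical axes from 0), with the 3 replicates of each label as points and their mean ± SD beside them. Uqcr10, Ndufb4, Ndufa1 and Ndufc2 have groups that do not overlap on the higher side and Sdha on the lower, while Uqcrb, Cox4i1 and Atp5b overlap.

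Complex IV, the cytochrome c oxidase, has several subunits with a common form and a tissue-restricted form, and here only common forms were expressed at substantial levels. Cox4i1, the regulatory subunit common to most tissues, had 327, 369 and 349 FPKM under the LPS label and 374, 366 and 342 under the LPSKD label. Its lung-type partner Cox4i2, known to respond to hypoxia, had 2 to 5 fragments and between 0.0414% and 0.111% of the pair's summed FPKM. The muscle-type Cox6a2 had 1 to 3 fragments, beside 209 ± 4.35 and 232 ± 19.9 FPKM for the common Cox6a1. The muscle-type Cox7a1 had 1 to 4 fragments, beside 115 ± 6.68 and 131 ± 16.0 FPKM for Cox7a2, and the testis-type Cox6b2 had 0 to 4, beside 280 ± 25.8 and 296 ± 8.54 FPKM for Cox6b1. The muscle-type Cox8b and the testis-type Cox8c were listed at 0 in every library, beside 273 ± 18.1 and 300.0 ± 20.4 FPKM for Cox8a. A listed 0 need not mean that a gene is silent, since Cox17, which respiring cells use, is also listed at 0 in all 6 libraries. However, 100% of the coding stretches of Cox17 occur in another gene, against 0.0% for Cox8b and Cox8c, so its case may not apply to theirs.

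Of the 12 complex IV genes tested, 2 had an unadjusted p under 0.05, beside 17.6% of all tested genes. None was called, with 10 higher and a median difference of 0.09. Without replicate 1 of the group labelled LPS this median was 0.04. The 10 common forms lay between -0.03 (Cox5a) and 0.18 (Cox7a2). Cox7a2 had 114, 122 and 108 FPKM against 145, 134 and 113, which overlapped (difference 0.18 ± 0.09, adjusted p = 0.318). Cox6a1 differed by 0.15 (adjusted p = 0.241), Cox8a by 0.14 (0.294), Cox6b1 by 0.08 (0.562) and Cox4i1 by 0.05 (0.673), each adjusted over all genes. Cox7b2, a form known from testis, gave the lowest difference of all members at -0.44 ± 0.34 (adjusted p = 0.557). It had only 9, 12 and 8 fragments under the LPS label and 4, 8 and 10 under the LPSKD label, and its 95% interval ran from -1.21 to 0.33. Cox7a2l, which ties complexes III and IV into supercomplexes, differed by 0.05.

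Complex V held the 2 most abundant transcripts among the nuclear members. Atp5b had 965, 969 and 953 FPKM against 953, 975 and 968, from 36975 to 39095 fragments, and a difference of 0.01 ± 0.03 (95% interval -0.06 to 0.07, adjusted p = 0.949). Atp5a1, the alpha subunit of the catalytic head, had 501, 505 and 494 FPKM under the LPS label and 518, 517 and 511 under the LPSKD label. Its groups did not overlap, yet the difference was 0.04 ± 0.03 (adjusted p = 0.497). Over the 17 tested genes, 12 were higher, the median was 0.04 and none was called. Of the 17, 2 had an unadjusted p under 0.05, beside 17.6% of all tested genes. Without replicate 1 of the group labelled LPS the median was -0.01. The largest differences were in small membrane subunits, which link ATP synthase dimers. Atp5k had 38.7, 40.9 and 35.4 against 50.6, 37.2 and 44.5 FPKM (0.19, adjusted p = 0.392). Atp5j2 had 90.9, 112 and 109 against 120, 122 and 111 FPKM (0.18, adjusted p = 0.268). Both overlapped between groups.

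The c ring, the rotor that protons turn, is encoded by 3 genes that give the same mature protein. Atp5g1 made up 19.6% ± 0.251 of their summed FPKM under the LPS label and 19.8% ± 1.48 under the LPSKD label (SD, n = 3). For Atp5g2 the shares were 39.5% ± 1.01 and 40.6% ± 0.262, and for Atp5g3 40.9% ± 1.08 and 39.6% ± 1.47, so the mix of the 3 genes overlapped between the groups. Their log2 differences were -0.03, 0.01 and -0.08 (adjusted p = 0.805, 0.955 and 0.511). Every 31-base stretch of Atp5g1 and Atp5g2 occurs in other transcripts and none of Atp5g3 does, which makes the first 2 levels uncertain. A second Ensembl entry named Atp5o, with 94.0% of its stretches shared, was listed at 0, while the first had 71.7 ± 1.76 and 76.4 ± 6.46 FPKM.

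The lean of the pathway towards higher values was uneven across libraries. The median deviation of the 87 members from their own means over the 6 libraries was -0.09, 0.03 and -0.02 under the LPS label and 0.08, 0.04 and 0.00 under the LPSKD label, on the log2 scale. Replicate 1 of the group labelled LPS was the lowest library for 46 of the 87 members, against 17.9% of all tested genes. Replicate 1 of the group labelled LPSKD was the highest for 33 members, against 14.6% of all tested genes. Replicates 2 and 3 of the groups lay between -0.02 and 0.04. Complex III had the lowest value in replicate 1 of the group labelled LPS (-0.14) and complex II the least low (-0.03).

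**Figure D4:**
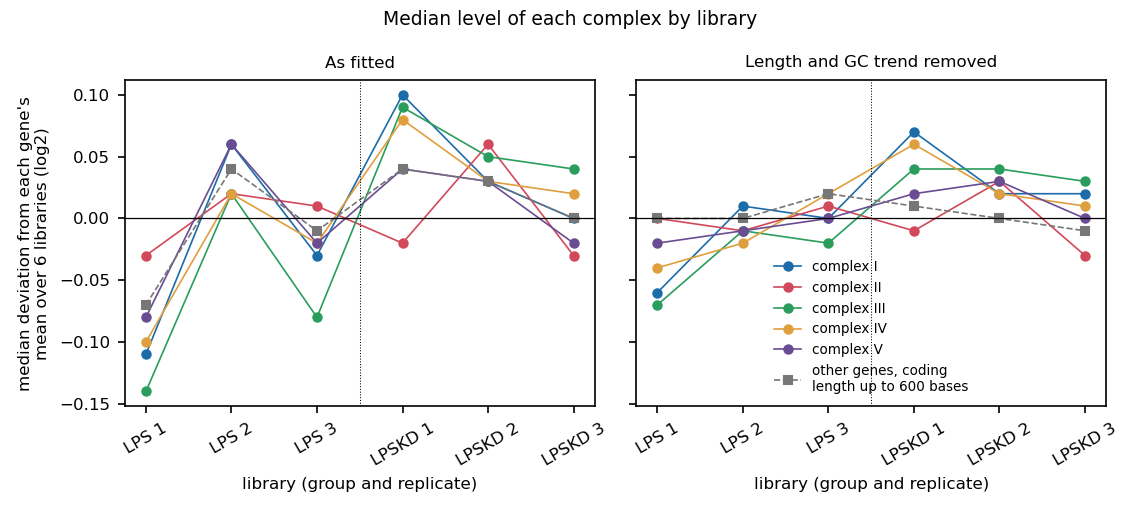
Median deviation of each complex from its genes' means over 6 libraries (vertical, log2), by library, as fitted on the left and with a trend in coding length and GC content removed from each library on the right. Replicate 1 of the group labelled LPS is lowest for all 5 complexes on the left except that complex II is level with replicate 3 labelled LPSKD, and grey squares show that other short genes are low there too (-0.07).

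Coding length moved with these differences. The members encode short proteins, with a median merged coding length of 443 bases beside 1392 over all tested genes, and 58 of 86 with a coding sequence were no longer than 600 bases. Of those 58, 49 were higher under the LPSKD label, with a median of 0.09, while of the 28 longer members 17 were higher, with a median of 0.02. Tested genes outside the pathway followed the same order, with a median of 0.06 for 204 genes up to 300 bases, 0.03 for 1206 genes from 300 to 600, -0.01 for 4892 genes from 600 to 1500 and -0.02 for 5311 longer ones. Of 1410 such genes up to 600 bases, 843 (59.8%) were higher, with a median of 0.04. Across members, which are not independent replicates and share the same 6 libraries, log2 difference and log2 coding length had a Pearson's r of -0.34 and a Spearman's rho of -0.47 (n = 86). Without replicate 1 of the group labelled LPS these were -0.17 and -0.25. After a smooth trend in length and GC content was removed from each of the 6 libraries, they were -0.06 and -0.17, and the median of the members was 0.04 with 62 of 86 higher. With that trend removed, 6196 of 11699 tested genes were higher, with a median of 0.01. Of other genes up to 600 bases, 673 of 1410 were then higher, with a median of -0.01. Uqcr10, whose call other settings ended, passed with this trend removed at a difference of 0.19 (adjusted p = 0.0233). Whether coding length has a part in these differences was not tested beyond this.

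**Figure D5:**
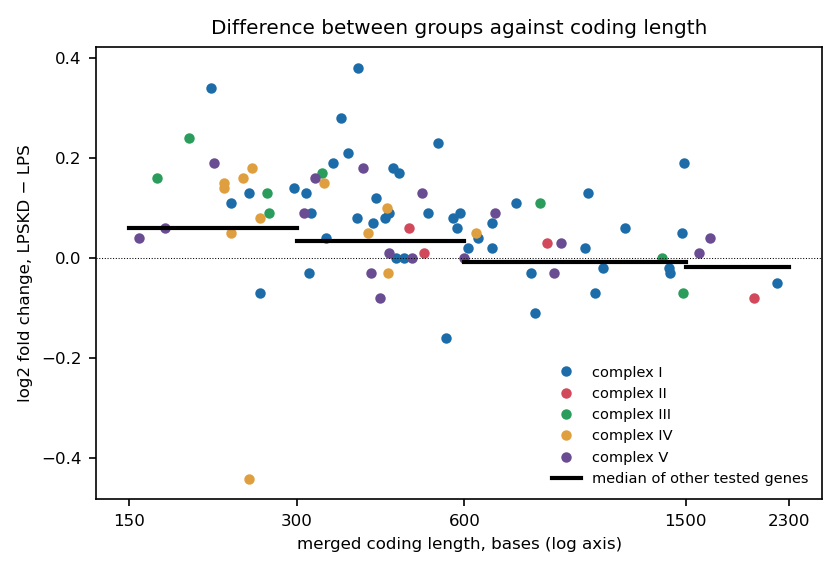
Log2 fold change of each tested member (LPSKD minus LPS) against its merged coding length in bases (log axis), with complexes by colour and black bars for the median of other tested genes in 4 length classes. Members up to 600 bases lie mostly above 0, and the black bars step down from 0.06 to -0.02 as length grows.

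The mitochondrially encoded subunits, the partners of these genes in complexes I, III, IV and V, did not pass the threshold either (0 of 13 tested, with 3 at an unadjusted p under 0.05, 7 higher, median 0.03). Over all tested genes, 3.23% passed it and 17.6% had an unadjusted p under 0.05. mt-Co1, the catalytic subunit of complex IV, had 11000, 11900 and 11300 FPKM under the LPS label and 12200, 12300 and 12200 under the LPSKD label. Its groups did not overlap, and the difference was 0.11 ± 0.04 (adjusted p = 0.220). It passed with the length and GC trend removed (0.16, adjusted p = 0.0164), as did mt-Co3 (0.22, adjusted p = 0.0242). With that trend left in, mt-Co3 did not pass (0.20, adjusted p = 0.0866). mt-Cytb, a subunit of complex III, had no overlap on the lower side, with 4720, 5330 and 4840 FPKM against 4700, 4640 and 4620. The difference of mt-Cytb was -0.09 ± 0.05 (adjusted p = 0.38). mt-Atp6 was at 25.4, 29.7 and 25.1 FPKM against 27.2, 32.0 and 79.3, so its difference of 0.62 (adjusted p = 0.390) came from replicate 3 labelled LPSKD. Levels of the 13 genes spread widely. mt-Co2, mt-Co3, mt-Atp6, mt-Nd3 and mt-Nd4l, with 99.0% to 100% of coding stretches shared with other annotated genes, lay between 0.348 and 99.8 FPKM in all libraries, whereas mt-Nd1 (0.0% shared) and mt-Cytb (6.6%) lay between 3910 and 5330. The other genes did not follow this order. mt-Co1 was the highest with 63.8% shared, and mt-Nd4 had 62.8% shared at 1060 to 1190 FPKM. mt-Nd6 had 7.4% shared at 78.9 to 152 FPKM, and mt-Atp8 5.8% at 0.994 to 2.43. Whether sharing had a part in these levels was not tested.

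Of the genes around the pathway, 1 of 152 tested outside the mitochondrial genome was called, beside 379 of 11723 tested genes (3.23%). Suclg2, a subunit of succinyl-CoA ligase in the TCA cycle, had 77.4 to 80.1 FPKM under the LPS label and 88.6 to 89.4 under the LPSKD label, with no overlap. The difference was 0.17 ± 0.04 (adjusted p = 0.0434), and 71.5% of its coding stretches are shared with another gene. Leaving out any 1 library ended this call, with adjusted p-values of 0.0718 to 0.165. The other 25 TCA cycle and pyruvate entry genes tested were not called, and the 26 had a median of 0.00. Assembly factors outside the choice by symbol had 0 of 45 called, with 14 at an unadjusted p under 0.05 (31.1%, beside 17.6% of all tested genes) and a median of -0.03. Of the 45, 20 were higher and 25 lower. They ran from -0.50 (Sdhaf3, adjusted p = 0.221) to 0.69 (Cox20, adjusted p = 0.0778), both without overlap, beside -0.44 to 0.38 for the members. Cox17, an assembly factor that is a copper chaperone for complex IV, was listed at 0 in every library, and all of its coding stretches occur in another gene. Electron carriers and coenzyme Q synthesis had 0 of 20 called, with 3 at an unadjusted p under 0.05 and a median of 0.00. This list holds Cyc1, the cytochrome c1 of complex III, which had 129, 124 and 120 FPKM against 136, 127 and 127 (0.06, adjusted p = 0.506).

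Of the regulators of mitochondrial gene expression, 0 of 19 tested were called, with 4 at an unadjusted p under 0.05 (21.1%, beside 17.6% of all tested genes) and a median of 0.00. Nrf1 differed by -0.12 (adjusted p = 0.376). Gabpa had 36.8 FPKM on average under the LPS label and 39.4 under the LPSKD label (0.10, adjusted p = 0.349), Esrra 38.7 and 35.4 (-0.13, adjusted p = 0.327) and Tfam, which packages mitochondrial DNA and helps to start its transcription, 77.8 and 71.6 (-0.12, adjusted p = 0.191). The coactivator Ppargc1a, a driver of mitochondrial biogenesis, was under the filter at 0.292 and 0.254 FPKM. These 5 were chosen after their values were seen. Import and dynamics genes had 0 of 32 called (3 at an unadjusted p under 0.05, median -0.01), and uncoupling, ATPase inhibitor and nucleotide exchange genes 0 of 10 (2 at an unadjusted p under 0.05, median 0.00).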

How the data were processed

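The authors deposited FPKM values, 1 per gene and library, for 3 libraries labelled LPS and 3 labelled LPSKD. The submitters' processing notes name Bowtie 0.12.2, HISAT2 2.0, StringTie 1.3.0 and the builds mm8 and GRCh38.p13, without saying which made these values. Symbols, coordinates and merged coding lengths came from GENCODE M21 (GRCm38). Multiplying the FPKM values by these lengths, or by up to 10 bases more, and by library totals found by search gave whole fragments (within 0.001) for 97.7% of the 16837 genes above 0, and totals of 24084827 to 25422171. For 380 further genes another length was found by search. Short and scarce genes are therefore the least precise.

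Tests used limma 3.58.1 in R 4.3.3 (lmFit, eBayes with trend) for genes averaging at least 0.5 FPKM, on values transformed as log2(FPKM + 0.1), without covariates, with Benjamini-Hochberg adjustment over all tested genes at 0.05. Differences are LPSKD minus LPS on that scale, which understates the change of low genes. The script was tested on simulated data. Shared sequence was counted as stretches of 31 bases of the longest coding sequence that also occur, on either strand, among the transcripts of other genes.

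The members and lists were chosen with earlier results of these data known. Named members are those with an adjusted p under 0.05, all of complex II, the 2 highest and the 2 most different of each complex, isoform pairs and members under the filter. Ndufs1, Ndufa3, Ndufb9, Uqcrc1, Uqcrfs1, Cox5a, Cox7a2l, Ndufb1-ps, Cyc1, Cox17, Cox20, Sdhaf3 and mt-Cytb were added after their values were seen. The alternatives were other pseudocounts, filters and scalings, eBayes without trend, a replicate block, removal of a spline trend in length and GC content, voom on recovered fragments and omission of each library. Chromatin samples were not used here. Figures used matplotlib 3.10.9.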

Additional observations from a re-analysis of the deposited data

How the results depend on the processing

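Filters at 1 and 0.1 FPKM, pseudocounts of 1 and 0.01, median centring, quantile normalisation and removal of the length and GC trend kept 1 called member, and in each it was Uqcr10. No member was called without a filter, without the trend or by voom on recovered fragments (0 each; Uqcr10 adjusted p = 0.0561, 0.127 and 0.107). Leaving out 1 library gave 0 to 4 called members, the 4 without replicate 2 labelled LPS being Ndufa3, Ndufb4, Uqcr10 and Uqcrb. The median of the members lay between 0.021 and 0.101 when 1 library was left out, and was above 0 under every alternative run. With the length and GC trend removed, the median of complex II became -0.018 and that of complex IV 0.031. Leaving out 1 library moved the median of complex II between -0.011 and 0.034, of complex IV between 0.036 and 0.124, and of complex V between -0.013 and 0.105.

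Libraries with the same replicate number did not deviate together (correlations of same-numbered deviations -0.016, -0.004 and -0.043). These values cannot show whether the cultures were paired. With the number as a replicate block, 213 genes were called in place of 379, Ndufa1 was the 1 member called (adjusted p = 0.048), Uqcr10 had an adjusted p of 0.0533, and 0 other pathway genes were called. Over all genes, 140 were called without the trend and 598 by voom.

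Of the other pathway genes, 4 were called with the length and GC trend removed, 2 with median centring, 3 by voom and 0 with quantile normalisation, and 0 to 1 when a library was left out. Stat3 differed by 0.01 with the trend removed and by -0.06 to 0.04 without 1 library. Small differences changed sign for Atp5b (-0.04, quantile), Sdhc (-0.03 with the trend removed, -0.01 with quantile), Sdhd (-0.01, trend removed) and Atp5g2 (-0.05, trend removed), and when 1 library was left out Sdhc ranged from -0.04 to 0.05, Atp5g2 from -0.02 to 0.04 and Atp5g1 from -0.05 to 0.01. The causes were not tested. Depth limits what can be said of members with under 12 fragments.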
